A study of Mus musculus with 4 samples.

Results

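Kinesins are motor proteins that use ATP to walk along microtubules or to take microtubule ends apart, and their genes were examined here in 4 RNA-seq libraries of mouse T cells. Members were all genes whose symbol consists of Kif or Kifc, a number and at most 1 letter from a to c, which gave 42 genes, all annotated as protein-coding, of the 50600 genes listed. They were divided by known role, with earlier results of these data known, into 13 mitotic kinesins, 15 transport kinesins and 14 others. The libraries are numbered as replicates 1 to 4 of primary T cells from mouse strain C57BL/6NJ, the only group, so no treatment or genotype was compared. The file headers carry names with Th0, activated and 48 h, which the sample labels do not state, and a linked protocol is named for the differentiation of CD4+ T cells. The labels give sex as not collected, age as unknown and the same donor identifier for all 4 replicates. Nothing says that they came from separate animals or cultures, so every p-value below measures only the spread between these libraries, which may be technical.

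In a dividing cell, mitotic kinesins push the spindle poles apart, move chromosomes, trim microtubule ends and build the midzone at which the cell is cut into daughters. Transport kinesins carry vesicles, mitochondria, endosomes and ciliary components along microtubules, mostly toward the cell periphery, and many of them need light chains or adaptor proteins to hold their cargo. Activated T cells are known to divide rapidly, and they also move organelles and their centrosome toward a bound partner cell.

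Library totals ran from 45110199 counts in replicate 2 to 127755788 in replicate 3, a 2.83-fold range, and kinesins took 0.244% to 0.254% of them. Of the markers checked, 9 of 9 T cell genes lay above 1 CPM (read pairs of a gene scaled to the library total), with summed levels of 5445 to 5590 TPM (CPM-like values that also correct for gene length). Markers of other cells were sparse, apart from the CD8 chain gene Cd8b1 at 22.25 TPM. The other CD8 chain gene, Cd8a, had 0.263 TPM and lay below 1 CPM. The summed level was 20.5 to 24.5 TPM for CD8 T and NK cell genes (1 of 5 above 1 CPM), 3.05 to 5.37 for B cells (0 of 5), 2.51 to 3.55 for monocytes, macrophages and neutrophils (1 of 7), 1.99 to 3.05 for dendritic cells (1 of 4), 0.278 to 1.02 for erythroid cells and platelets (0 of 4), 1.6 to 2.54 for neurons (1 of 4) and 0.402 to 0.513 for ciliated epithelium (0 of 4). Lyz2, S100a8, S100a9, Hbb-bs, Pf4, Dnah5 and Tekt1 had no count in any library.

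The first question was which kinesins the T cell libraries contained. A gene was called above or below 1 CPM from its mean log2(CPM + 0.1) with limma, one-sided in each direction. Calls were made at an adjusted p below 0.05 (Benjamini-Hochberg, 23365 genes with any count). Above 1 CPM were 29 of the 42 kinesins, or of the 38 that had a count and were tested. Of all genes tested 47.4% were above. Below 1 CPM were 6 kinesins, against 48.3% of all genes tested. Another 3 kinesins could not be placed on either side and 4 had no count. The genes tested include non-coding ones, while all 42 kinesins are protein-coding. Kif9, the lowest kinesin above 1 CPM, stood at percentile 31.6 of the protein-coding genes tested, by TPM. Shares over protein-coding genes alone were not computed, so no excess of kinesins can be read from these counts. By role, 12 of 13 mitotic kinesins lay above, with only Kif2b, a microtubule depolymerase, without a count. Of the transport kinesins 11 of 15 lay above and 2 below, and of the others 6 of 14 lay above and 4 below.

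Mitotic kinesins were also the most abundant per length. Their median was 68.0, 74.4, 73.6 and 70.2 TPM in replicates 1 to 4, while the transport kinesins had medians of 9.39, 8.35, 9.48 and 9.16 TPM. No library brought the medians near each other, and their ratio was 7.90 ± 0.71 (SD, n = 4). The median over all genes tested was 1.81 TPM and over protein-coding genes 14.2 TPM. Above that protein-coding median lay 11 of 13 mitotic, 7 of 15 transport and 4 of 14 other kinesins. Mitotic kinesins supplied 68.8% ± 0.19 of the summed kinesin TPM, transport kinesins 20.4% ± 0.18 and the others 10.8% ± 0.31 (SD, n = 4). The classes are sets of different genes, so this contrast is a description, with no test. In bulk RNA a larger part of cells in division and more kinesin RNA in each such cell cannot be told apart.

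**Figure D1:**
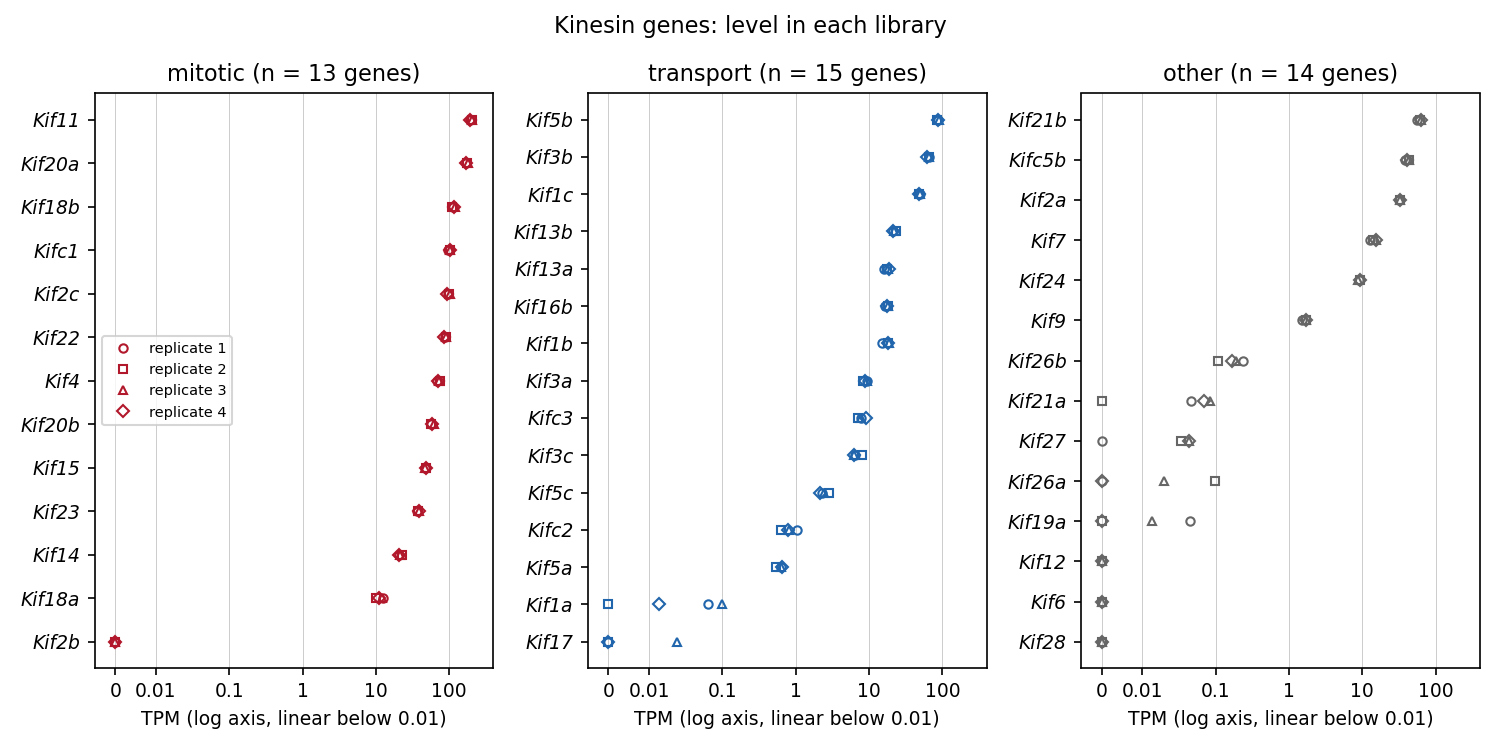
Level of each of the 42 kinesin genes (TPM, log axis that is linear below 0.01), with 1 symbol per library and 1 panel per class. Kif11 stands highest at a mean of 199.6 TPM, 12 mitotic kinesins lie between 11.5 and 199.6 TPM with Kif2b at 0, and transport kinesins spread from Kif5b at 87.3 TPM to Kif17 near 0.

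The 6 highest kinesins by mean TPM were all mitotic, and 9 of the highest 13 were. This order rests on the length correction. In CPM Kif21b (216.7) stood above Kif20a (193.6), and the transport kinesin Kif5b (188.1) above Kif18b (120). Among the 29 kinesins above 1 CPM, ordered by mean TPM, 14 of 28 neighbouring pairs had library ranges that did not overlap and the other 14 overlapped. Kif11, Kif20a and Kif18b held the top ranks apart from each other and from the rest. The ranges of Kifc1 and Kif2c overlapped, as did those of Kif22 and Kif5b, so their order is not set by these libraries. At the lower end the order of Kif13a, Kif16b and Kif1b changed between libraries.

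**Figure D2:**
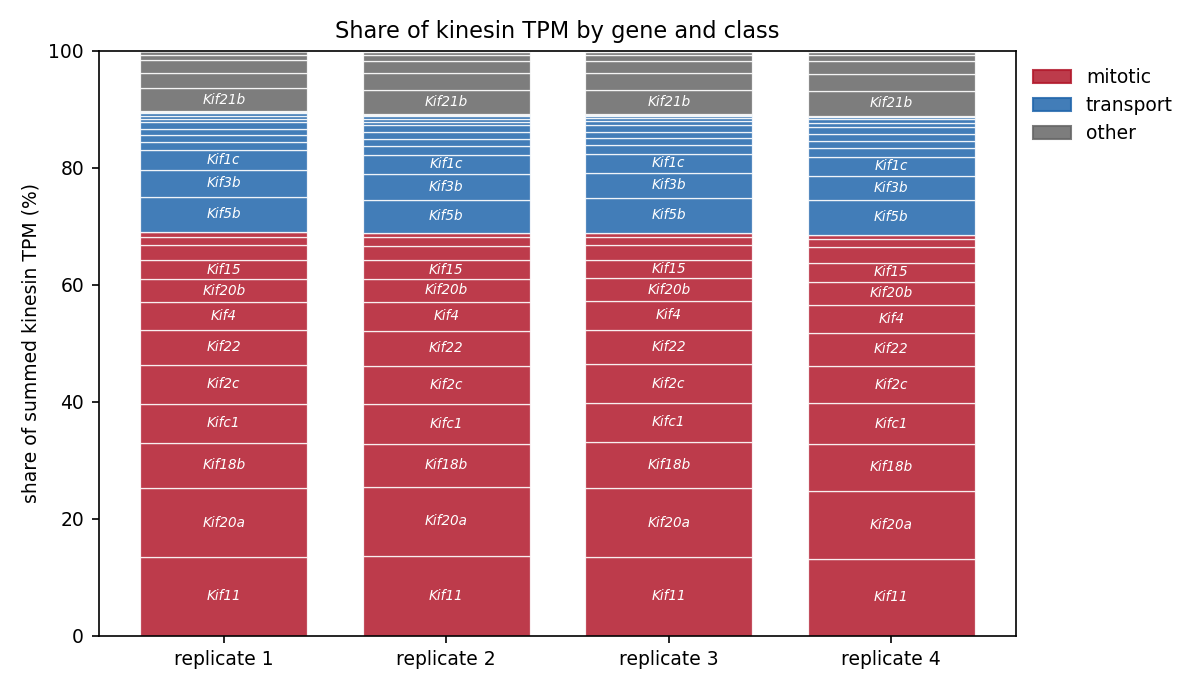
Share of summed kinesin TPM (%) by gene, stacked for each of the 4 libraries and coloured by class. The stacks look alike: the mitotic block ends between 68.6% and 69.0%, and Kif11 alone takes 13.4% ± 0.19 (SD, n = 4).

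Some mitotic kinesin promoters carry elements known from genes that peak late in the cell cycle. The cell cycle genes homology region (CHR, letters TTTGAA) is bound by MuvB complexes, and the CCAAT box (letters CCAAT) by NF-Y. The 250 bases before each RefSeq start (GRCm38.p6) were searched on both strands for these letters, and 33 kinesins matched a table entry, with 37 promoters. Kif5a, Kif5b, Kif13b, Kif19a, Kif20a, Kif21b, Kif28, Kifc2 and Kifc3 had no entry. The last 100 bases before the start are shown for 4 mitotic kinesins with matches there and, for contrast, the transport kinesin Kif3b. These windows have matches in capitals (TTCAAA and ATTGG are the same letters read on the other strand). They lie at chr19:37376282-37376381 (plus strand) for Kif11, chr9:122950981-122951080 (plus) for Kif15, chr7:127042421-127042520 (minus) for Kif22, chr17:33890634-33890733 (minus) for Kifc1 and chr2:153291316-153291415 (plus) for Kif3b.
Kif11: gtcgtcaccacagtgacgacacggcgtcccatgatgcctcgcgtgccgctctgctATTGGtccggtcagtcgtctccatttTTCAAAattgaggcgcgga
Kif15: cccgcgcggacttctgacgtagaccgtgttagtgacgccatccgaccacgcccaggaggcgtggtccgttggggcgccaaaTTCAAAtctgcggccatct
Kif22: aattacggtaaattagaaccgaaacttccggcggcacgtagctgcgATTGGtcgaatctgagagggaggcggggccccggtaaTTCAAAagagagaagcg
Kifc1: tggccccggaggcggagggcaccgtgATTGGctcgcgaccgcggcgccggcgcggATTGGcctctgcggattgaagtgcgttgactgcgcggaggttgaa
Kif3b: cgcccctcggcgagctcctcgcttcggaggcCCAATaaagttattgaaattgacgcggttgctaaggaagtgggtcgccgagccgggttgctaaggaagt

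In these windows the CHR letters began 19 bases before the start in Kif11 and Kif15 and 17 bases before it in Kif22. No other mitotic promoter held them as close, so the windows are examples and not typical. In Kif2c and Kif14 the CHR letters began 103 and 228 bases before the start. Both of these starts lie inside the counted gene and not at its outer end. The Kif2c entry is chr4:117178723-117179022 (minus), in a gene that reaches 117182639. The Kif14 entry is chr1:136467598-136467897 (plus), in a gene that begins at 136466343. Kif18a and Kif20b held neither CHR nor CCAAT letters in the 250 bases. Over the 250 bases, CHR letters stood in 5 of 12 mitotic promoters (41.7%), 1 of 12 transport promoters (8.33%) and 2 of 13 others (15.4%), and in 16% of the 32851 promoters in the table. CCAAT letters stood in 8 of 12 mitotic (66.7%), 4 of 12 transport (33.3%) and 5 of 13 other promoters (38.5%), and in 33.8% of all. Both motifs together, counted even where their letters share bases, stood in 3 of 12 mitotic promoters (25%; Kif11, Kif14 and Kif22), in 0 of 12 transport promoters, in 2 of 13 others (15.4%; Kif26b and Kif27, both scarcely counted here) and in 5.55% of all. The letters GCGGGAA, an E2F core, were found in 0 of 12 mitotic, 0 of 12 transport and 2 of 13 other promoters (15.4%), and in 3.82% of all. TATAAA, the TATA box, stood in 1 of 12 mitotic, 1 of 12 transport and 3 of 13 other promoters (23.1%), and in 12.4% of all. These counts are small and were not tested, and a match in letters is not a bound site. Kif2b, which had no count, also holds a CCAAT match.

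The gene pairs below were compared within each library as a difference of log2(TPM + 0.1), tested with limma (two-sided, adjusted over all genes set against the first gene). All 28 pairs differed, 22 with the first gene higher, but so did 97.4% of the 397188 comparisons of the same first genes with every other gene. Passing the test therefore says little about a pair, and the size of the ratio is given instead. The size depends on gene length: the longest transcript as length moved 7 of the 28 ratios by over 1.5 times, each given beside its result, and leaving out the length correction moved 15. Among the latter, in CPM, were Kif11 over Kif5b at 1.49-fold, Kif11 over Cenpe at 1.56-fold, Kif18b over Kif18a at 3.64-fold, Kif2c over Kif2a at 1.87-fold, Kif3b over Kif3a at 11.3-fold, Kifc1 over Kifc3 at 8.1-fold and Kif5b over Klc1 at 2.00-fold.

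Among motors that set up the spindle, Kif11 was highest. This tetrameric kinesin-5 slides spindle microtubules apart (gene at chr19:37376403-37421859, plus strand). Its level was 194, 204, 207 and 194 TPM in replicates 1 to 4, or 199.6 ± 6.9 (SD, n = 4), above 93.9% of protein-coding genes tested. Replicates 2 and 3 were the higher ones, and each library placed Kif11 above every other kinesin. Kif15, which can also hold spindle poles apart, had 46.9, 48.5, 46.6 and 47.8 TPM. The libraries of Kif15 lay within 2 TPM of each other, and Kif11 was 4.20-fold higher (log2 2.07 ± 0.03 SE, adjusted p = 6.1e-09). That ratio was 1.85-fold with the longest transcript as length and 1.84-fold in CPM. Kifc1, a minus-end directed kinesin-14 that focuses spindle poles, had 95.5, 101.6, 102 and 102 TPM, with replicate 1 the low one. Kif11 exceeded it 1.99-fold (log2 0.99 ± 0.03 SE, adjusted p = 7.9e-08). Cenpe, a kinetochore kinesin whose symbol is outside the Kif series, stood at 71.4 ± 2.6 TPM (SD, n = 4), and Kif11 was 2.79-fold above it.

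Kifc1 has a near-identical copy, Kifc5b, on the same chromosome. Their transcripts share 96.84% of bases over a 2297-base stretch, 97.5% of a 2357-base Kifc1 transcript, so the counting could have split reads between them. Kifc5b had 38.2, 43.7, 43.9 and 41.1 TPM and took 24.3% ± 0.73 of the counts of the pair (SD, n = 4). Their summed level was 125, 134.7, 133 and 133 CPM, lowest in replicate 1. The separate levels of Kifc1 and Kifc5b are uncertain for that reason, and the sum does not depend on the split. The sum does depend on whether reads that map to both genes were counted, dropped or counted for each, which is not known.

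Chromosome and microtubule-end motors were next. Kif18b, a kinesin-8 that limits astral microtubule length, had 112, 110.2, 121 and 117 TPM. Its sister Kif18a, which damps chromosome movements at the metaphase plate, had 12.6, 10.2, 12.0 and 11.2 TPM. The ranges lay far apart in every library, with Kif18b 9.96-fold higher (log2 3.32 ± 0.06 SE, adjusted p = 2.2e-08) and 90.9% ± 0.71 of the TPM of this pair. Kif2c, the depolymerase also called MCAK that corrects faulty kinetochore attachments, had 97.2, 98.2, 101.4 and 93.4 TPM. Kif2a, a depolymerase at spindle poles that also acts outside mitosis, had 31.6, 32.7, 32.7 and 32.3 TPM and was the steadiest member, with a coefficient of variation of 1.21% in CPM. Kif2c was 3.01-fold above Kif2a (log2 1.59 ± 0.03 SE), and Kif2b had no count, which at 3 counts allows up to 0.0235 to 0.0665 CPM per library for counting error only. The chromokinesins, which push chromosome arms, lay closer together. Kif22 had 87.3, 90.6, 91.1 and 84.4 TPM and Kif4 68.0, 74.4, 73.6 and 70.2 TPM, so their ranges were apart in each library, with Kif4 lower by 0.30 ± 0.03 (log2, SE; adjusted p = 4.1e-05).

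The kinesin-6 motors of the midzone and cytokinesis differed widely. Kif20a, which brings the chromosomal passenger complex to the midzone, had 171, 178, 179.8 and 172 TPM. Kif20b, which acts late in abscission, had 56.1, 57.05, 61.3 and 57.5 TPM. Kif23, the motor of centralspindlin, had 36.9, 37.7, 39.2 and 38.9 TPM. Replicate 3 was highest for each of these 3 genes, and their ranges did not overlap. Kif20a was 3.02-fold above Kif20b and 4.58-fold above Kif23, and it supplied 64.5% ± 0.57 of the TPM of the 3 genes (SD, n = 4). Kif20a over Kif23 fell to 2.04-fold with the longest transcript as length and was 2.20-fold in CPM. The order of Kif20b over Kif23 (1.52-fold, log2 0.60 in size) turned with the longest transcript, with Kif23 then higher by 0.61 on the log2 scale. Kif14, a midbody motor, had 20.8, 22.8, 21.6 and 20.7 TPM, and Kif23 was 1.77-fold above it, or 3.56-fold with the longest transcript as length.

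The partners of these motors were present too. Of the spindle and midzone partners 14 of 14 lay above 1 CPM (47.4% of all genes tested, non-coding ones included). Their median was 106.9 TPM, against 1.81 TPM over all genes tested and 14.2 TPM over protein-coding ones. This list and the partner lists below were chosen with earlier results of these data known, so such counts are no test. Incenp, a scaffold of the chromosomal passenger complex, had 246 ± 6.8 TPM and its kinase Aurkb 196 ± 3.9 TPM (SD, n = 4). Tpx2, which targets spindle proteins including Kif15 to microtubules, had 178 ± 5.8 TPM. Racgap1, the other subunit of centralspindlin, had 86.2 ± 2.2 TPM, and Prc1, the midzone bundler that Kif4 binds, 43.2 ± 0.69 TPM (SD, n = 4). With the longest transcript as length Incenp had 181.7 TPM and Aurkb 235.1 TPM, so their order depends on the gene length. Tpx2 then had 150.8, Racgap1 108 and Prc1 77.3 TPM.

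**Figure D3:**
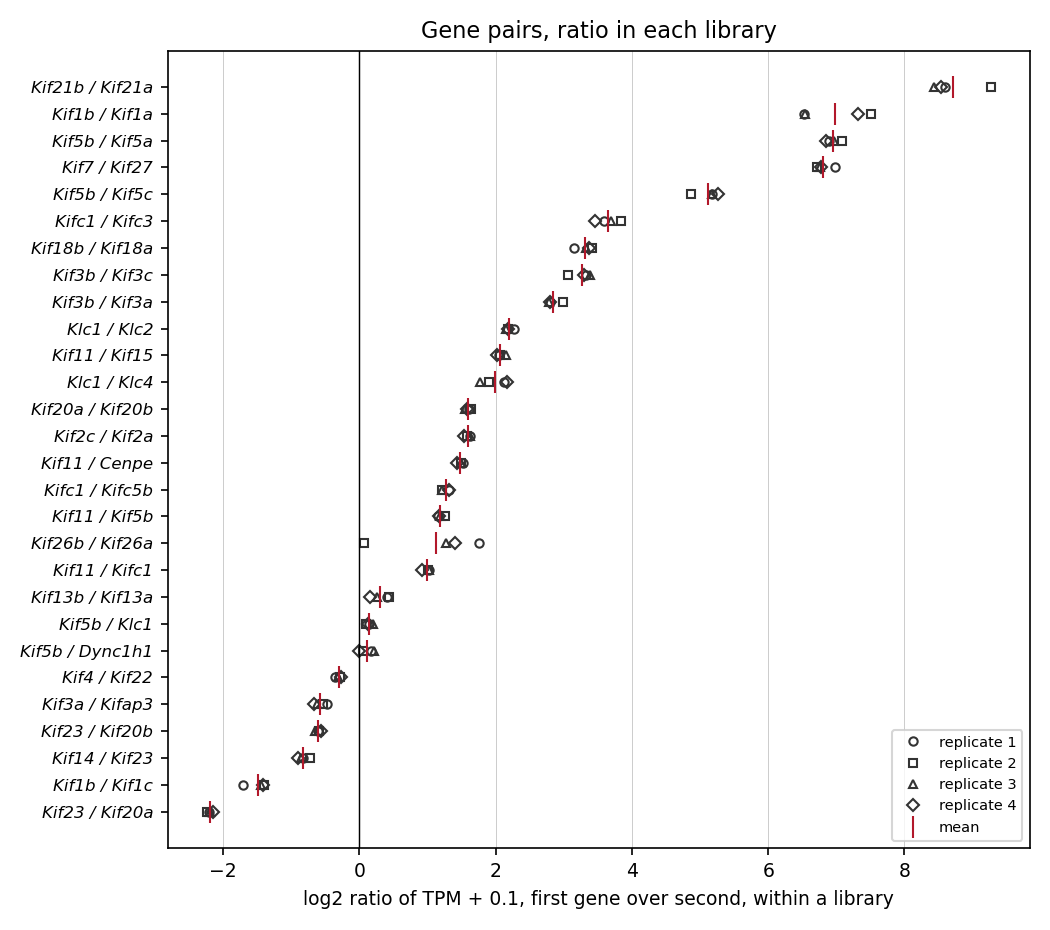
Log2 ratio of TPM + 0.1 within each library for 28 gene pairs, first gene over second, with 1 symbol per library and a bar at the mean. Kif23 over Kif20a lies lowest at -2.20 and Kif21b over Kif21a highest at 8.71; ratios against genes with almost no counts depend on the added 0.1.

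Among the transport kinesins Kif5b led kinesin-1 and Kif3b led kinesin-2. Kif5b, the kinesin-1 heavy chain found in most tissues, had 87.1, 85.3, 90.5 and 86.4 TPM, or 87.3 ± 2.3 (SD, n = 4), and supplied 96.6% ± 0.29 of the TPM of Kif5a, Kif5b and Kif5c. Kif5c, known mainly from neurons, had 2.32, 2.83, 2.42 and 2.16 TPM, and Kif5b was 34.7-fold higher (log2 5.12 ± 0.13 SE, adjusted p = 1.5e-07). Kif5a, also mainly neuronal, had 74, 49, 161 and 71 counts, and its 1.24 CPM could not be placed against 1 CPM (adjusted p = 0.14). It was called above 1 CPM when only genes passing filterByExpr, edgeR's filter on low counts, were tested (adjusted p = 0.0339), and below 1 TPM when levels were corrected for length (-0.63 on the log2 scale, adjusted p = 0.0421). The lowest Kif5b library thus stood far above the highest of either relative. Kif11 was 2.28-fold above Kif5b, the most abundant transport kinesin, with no overlap.

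Kinesin-1 works as a pair of heavy chains with a pair of light chains. Klc1 was the main light chain gene at 79.1 ± 0.52 TPM, with Klc4 at 20.0 ± 2.6, Klc2 at 17.2 ± 0.65 and Klc3 at 13.5 ± 1.8 TPM (SD, n = 4). Klc1 was 4.58-fold above Klc2 and 3.97-fold above Klc4, the latter being 6.45-fold with the longest transcript as length and 6.95-fold in CPM. Kif5b stood near Klc1, higher by 0.14 ± 0.02 on the log2 scale in 4 of 4 libraries, but lower by 0.26 in size when the longest transcript gave the length. In all, 16 of 18 light chain and cargo linker genes lay above 1 CPM (47.4% of all genes tested, non-coding ones included). Their median was 24.1 TPM. An example is Arl8b, which links lysosomes to kinesin-1 (83.1 ± 1.1 TPM). Others are Trak2 and Trak1, which link mitochondria to kinesin-1 (49.0 ± 1.8 and 24.7 ± 1.3 TPM). With the longest transcript as length Trak2 and Trak1 stood at 44.5 and 45.8 TPM, so their order depends on the gene length. Fez1, an adaptor known from neurons, lay below 1 CPM with 6, 0, 3 and 4 counts, and Mapk8ip1 could not be placed.

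Kinesin-2 is a heterotrimer of Kif3a, Kif3b or Kif3c as its partner, and the accessory subunit Kifap3. Kif3b had 66.0, 66.7, 66.2 and 61.7 TPM, with replicate 4 the low one, while Kif3a had 9.39, 8.35, 9.48 and 8.75 TPM. Kif3c had 6.502, 7.93, 6.24 and 6.16 TPM, with replicate 2 the high one. Kif3b thus stood far above both relatives in every library, 7.18-fold above Kif3a (log2 2.84 ± 0.06 SE, adjusted p = 2.1e-08) and 9.63-fold above Kif3c. The motor subunits of this trimer were unequal at the RNA level, and Kif3b held 80.6% ± 0.16 of the TPM of the 4 kinesin-2 genes (SD, n = 4). Kifap3, at 13.4 ± 1.1 TPM, was nearer to Kif3a, which was lower by 0.57 ± 0.06 (log2, SE). Kif17, the homodimeric kinesin-2 of dendrites and cilia, had 0, 0, 4 and 0 counts, so that its call below 1 CPM cannot be made without replicate 3. In cilia, kinesin-2 carries the products of the intraflagellar transport genes. Of these genes 14 of 14 lay above 1 CPM (47.4% of all genes tested, non-coding ones included). Their median of 11.8 TPM was below the protein-coding median of 14.2 TPM, as in Ift88 at 6.57 ± 0.8 TPM (SD, n = 4).

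The kinesin-3 genes had no such leader. Kif1c, a motor of vesicles between Golgi and periphery, was highest at 49.1, 47.8, 50.3 and 48.4 TPM, which was 39.7% ± 1.5 of the TPM of the 6 transport members of the family (SD, n = 4) and 33.8% ± 1.3 with the mitotic member Kif14 included. Kif1b, which carries mitochondria and synaptic vesicle precursors, had 15.0, 18.2, 18.4 and 18.1 TPM. Replicate 1 was the low library, and Kif1c lay 2.81-fold above Kif1b, or 1.78-fold with the longest transcript as length and 1.16-fold in CPM. Kif1a, the neuronal relative, had 10, 0, 34 and 2 counts and lay below 1 CPM (adjusted p = 1.7e-05 with limma). The endosome motors were closer together. Kif13b, which binds the scaffold Dlg1 in T cells, had 21.2, 23.5, 21.6 and 20.9 TPM, Kif13a, a recycling endosome motor, 16.0, 17.4, 18.1 and 18.8 TPM, and Kif16b, an early endosome motor, 16.3, 18.3, 17.9 and 17.5 TPM. Kif13b exceeded Kif13a in 4 of 4 libraries by 0.31 ± 0.06 (log2, SE; adjusted p = 0.00163). That difference shrank to 0.019 without length correction (adjusted p = 0.729) and turned to -0.35 with the longest transcript as length.

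The minus-end directed transport kinesins were low. Kifc3, which acts at cell junctions and the Golgi, had 7.85, 6.97, 7.80 and 9.16 TPM, and Kifc2 had 54, 26, 93 and 38 counts. It could not be placed against 1 CPM (adjusted p = 0.0908), but was called below with a pseudocount of 1 (adjusted p = 0.0189). Kifc1 was 12.5-fold above Kifc3. The other minus-end motor, cytoplasmic dynein, was abundant. Of the dynein and dynactin genes 17 of 18 lay above 1 CPM (47.4% of all genes tested, non-coding ones included). Their median was 73.7 TPM, and Dync1i1, a neuronal intermediate chain, had no count. The dynein heavy chain Dync1h1 had 77.0, 81.8, 78.2 and 86.3 TPM, a range that overlapped that of Kif5b. Kif5b was higher by 0.11 ± 0.04 (log2, SE; adjusted p = 0.035), a call that was lost without replicate 1 (0.091, adjusted p = 0.116) or replicate 3 (0.08, adjusted p = 0.103), and without length correction it was the lower by 0.97 in size.

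Of the 14 other kinesins, Kif21b was highest. It is a kinesin-4 known to restrain microtubule growth in T cells while the centrosome moves to the contact site. Its level was 56.5, 61.3, 63.4 and 62.9 TPM, with replicate 1 the low one, and its ranges overlapped those of Kif3b and Kif20b. Its relative Kif21a had 5, 0, 20 and 7 counts and lay below 1 CPM. The same contrast stood between the Hedgehog pathway kinesin Kif7, at 12.5, 14.0, 15.4 and 15.5 TPM, and its relative Kif27, with 0, 2, 7 and 3 counts. Kif24, which keeps centrioles from forming cilia, had 8.95, 9.17, 8.66 and 9.16 TPM, but a 411-base stretch of a Kif24 transcript matches one of Lrrc8d, so part of its counts is uncertain. Kif9, a kinesin of motile cilia, was the member just above 1 CPM, at 1.92, 2.13, 2.10 and 2.12 CPM.

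Members just outside the threshold were few. Kif26b had 58, 21, 102 and 38 counts and could not be placed (adjusted p = 0.108), but it was called below with a pseudocount of 1 (adjusted p = 0.0498) and against 1 TPM (adjusted p = 0.000314). Its relative Kif26a, with 0, 9, 5 and 0 counts, lay below 1 CPM. Both are atypical kinesins known for signalling rather than for movement. Kif19a, which trims ciliary microtubules, had 3, 0, 2 and 0 counts. Kif6, Kif12 and Kif28 had no count in any library.

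The spread of kinesins between replicates was compared with that of genes of like abundance. Of the 32 kinesins that passed the filter on low counts, 0 varied beyond genes of like abundance by edgeR's goodness-of-fit test with Benjamini-Hochberg adjustment, against 0.422% of the 13279 genes tested, a share at which 0 of 32 is no result about kinesins. Before adjustment 1 kinesin, Kif1b, was among the 770 genes past 0.05, and its adjusted p was 0.5015. A DESeq2 trend also called 0 kinesins. The coefficient of variation in CPM had a median of 3.01% over mitotic and 5.65% over transport kinesins above 1 CPM, against 5.28% over all genes above 1 CPM. Its highest values were 12.6% for Kif3c, with replicate 2 high, and 12.0% for Kif5c, and mitotic kinesins reached 9.07% at Kif18a. The difference between the classes was not tested, and these medians were not matched for level. Among kinesins above 1 CPM the lowest transport member, Kif5c, had 5.06 CPM and the lowest mitotic member, Kif18a, 32.99 CPM. The trended spread in edgeR was 12.6% at the level of Kif5c and 5.87% at that of Kif18a.

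**Figure D4:**
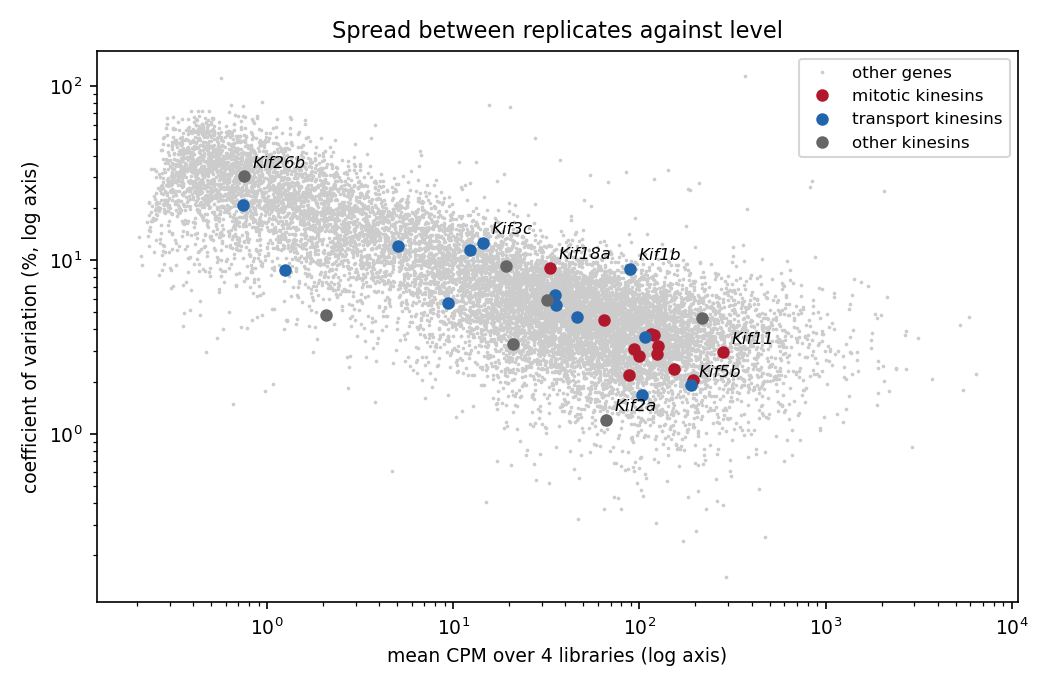
Coefficient of variation over the 4 libraries (%, log axis) against mean CPM (log axis), with kinesins coloured by class and other genes in grey. Kinesins lie within the grey cloud; Kif2a is lowest at 1.21%, and Kif1b, at 8.93%, is high for its level.

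The gene length used moved the level of some kinesins. The deposited length sums all exons of a gene in GENCODE M13, and the alternative was the longest transcript of the gene in GENCODE M21. The exchange shifted the median gene by -0.31 (log2), and relative to that 6 kinesins above 1 CPM moved over 1.5-fold. Kif23 rose from 38.2 to 70.3 TPM (rank 15 to 9), Kif15 from 47.5 to 85.3 TPM (rank 13 to 7) and Kif13b fell from 21.8 to 10.9 TPM (rank 17 to 23). Kif1b, Kifc3 and Kif2c were the others, at 1.69, 1.54 and 1.51 times the median gene. Kif11 and Kif20a kept the first and second rank under both lengths.

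**Figure D5:**
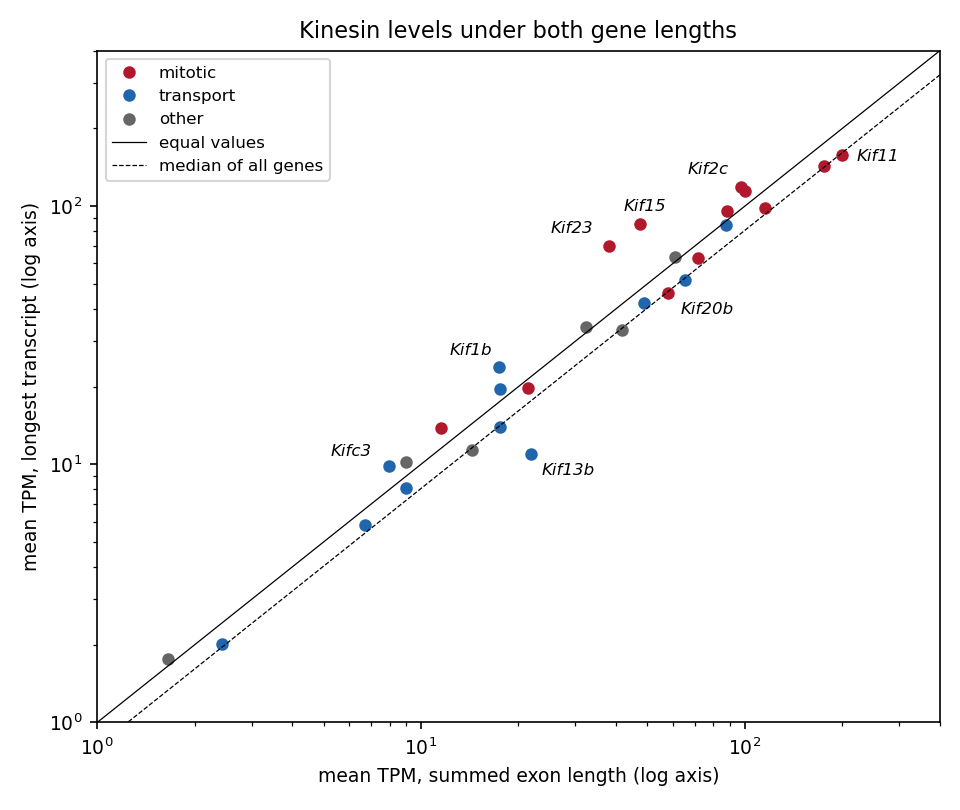
Mean TPM of kinesins above 1 TPM with the longest transcript as length against that with the summed exon length (both log axes), coloured by class, with the line of equal values and the dashed line of the median gene. Kif15 and Kif23 stand above the lines at 85.3 and 70.3 TPM, and Kif13b below them at 10.9 TPM.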

How the data were processed

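Per the file headers, the authors counted read pairs per gene with featureCounts 1.4.6-p4 (GENCODE M13 exons, strand option 2) and deposited these raw counts with each gene's summed exon length (mm10 per the labels). For reads that map to several places, the rule used was not given in the sources at hand. Per the labels the assay is total RNA-seq, but the linked protocol's name refers to polyadenylated RNA. Symbols came from GENCODE M21 (50376 of 50600 genes), and the rest took up to 0.00921% of counts in any library. CPM and TPM were computed from the counts. Levels and pairs were tested with limma 3.58.1 (pseudocount 0.1, empirical Bayes with trend), and spread between replicates with edgeR 4.0.16 (TMM, filterByExpr). DESeq2 1.42.0 was an alternative. Near-identical transcripts were sought with blastn 2.17.0+ (95% identity, 200 bases). Tests were tried on simulated independent libraries with an assumed spread, which cannot show whether the real libraries are independent. Total counts of 45110199 to 127755788 set the precision: 3 counts equal 0.0235 to 0.0665 CPM, for counting error only. Any kinesin, pair member or listed partner could be named. Members, classes, pairs and lists were chosen with earlier results of these data known. Alternatives covered pseudocount, scaling, filter, threshold, length, class and each replicate left out. Tools included R 4.3.3, python 3.11.15, pandas 2.3.3 and matplotlib 3.10.9.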

Additional observations from a re-analysis of the deposited data

Results flagged for a closer look

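The 74 sets of 4 library values were member levels, pair ratios, class medians and shares, the ratio of medians and the kinesin share of counts. Of these, 8 had 1 library whose gap to the next took up nearly the whole range, past the Dixon limit for 4 values. For normally distributed values chance flags about 1 in 20 sets. Replicate 1 was low for Kifc1 (95.51 TPM), Kif1b (14.98 TPM) and Kif9 (1.519 TPM), and for the log2 ratio of Kif1b over Kif1c (-1.708). Replicate 4 was low for Kif3b (61.66 TPM) and for the log2 ratio of Kif11 over Kifc1 (0.9216). Replicate 2 was high for the log2 ratio of Kif3b over Kif3a (2.983). Replicate 3 was high for Kif17 (0.02374 TPM), which had 4 counts there and 0 in the other libraries, a pattern that this rule always flags.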

How the results depend on the processing

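Mitotic kinesins above 1 CPM numbered 12 under every alternative run except the 2 changes of class, which each gave 13: Kif2a counted as mitotic, and Kifc5b as mitotic, the latter chosen after seeing the data. With Kif2a as mitotic, and Kif21a and Kif21b as transport, the ratio of mitotic to transport medians was 7.14 and the mitotic share 71.0%; with Kifc5b as mitotic they were 7.14 and 71.7%. The longest transcript as length gave 8.90 and 70.6%, and CPM gave a share of 59.7%. Leaving out each replicate gave ratios of 7.56 to 8.11, shares of 68.8% to 68.9%, 27 to 28 pairs told apart, and 33 to 40 of all genes varying beyond the trend against 56. Transport kinesins below 1 CPM numbered 1 to 2 with a replicate left out (1 without replicate 3), 0 after filterByExpr, 3 with a pseudocount of 1, against 1 TPM or with Kif21a and Kif21b as transport, and 4 at a threshold of 2 CPM. Other kinesins below numbered 0 after filterByExpr, which removes such genes, 3 with the change of class of Kif21a, and 5 with a pseudocount of 1, against 1 TPM or at 2 CPM. Transport kinesins above numbered 12 after filterByExpr, with Kif5a added, and 12 with Kif21b as transport. At 2 CPM Kif9 was no longer called above (adjusted p = 0.844), and Kifc2 and Kif26b were called below. Kif5a was called above 1 CPM after filterByExpr (adjusted p = 0.0339) and turned to the lower side, at -0.63 (log2) against 1 TPM and -0.65 against 2 CPM. Kif5b over Dync1h1 turned to -0.97 in CPM, and with the longest transcript Kif23 over Kif20b turned to 0.61, Kif5b over Klc1 to -0.26 and Kif13b over Kif13a to -0.35; these alternatives change only how gene length enters. No paired analysis was possible because there is 1 group.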
